A study of Mus musculus with 6 samples.

Results

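Transcripts of 9 genes of the B cell receptor and its signalling chain were measured in spleens of mice of the D3TA and WT groups. The genes were chosen by name: Cd79a, Cd79b, Ms4a1, Cd22, Cd72, Blnk, Btk, Blk and Bank1. Each matched 1 identifier through its GENCODE M21 symbol, so 9 of the 24906 listed genes are described, and all 9 passed the filter on low values. The D3TA group held 3 C57BL/6J mice with a CRISPR/Cas9-made change in Ccnd3, the gene for cyclin D3, that puts alanine in place of threonine 283. The WT group held 3 age-matched mice without the change. All 6 animals were 12 to 16 months old, an age at which the mutants show severe myeloproliferative neoplasm, per the series record. The mutant line was bred and kept as heterozygotes, and the change lies in the gene itself, so it is carried by all cells of the animal and not by B cells alone. Each library came from 1 mouse, and the polyadenylated RNA was of unsorted spleen cells.

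The B cell receptor is a membrane immunoglobulin bound to a pair of signalling chains, Ig-alpha and Ig-beta, whose tails are phosphorylated by Src family kinases when antigen binds. Syk then docks on these tails, and the adaptor Blnk brings Btk and phospholipase C gamma together to release calcium. Inhibitory receptors such as Cd22 and Cd72 recruit the phosphatase SHP-1 and dampen the signal. In the spleen these genes are mainly expressed by follicular and marginal zone B cells of the white pulp. Some have other sources as well: Btk is used by myeloid and mast cells, Cd72 and Blnk by macrophages, and Cd22, Blk and Bank1 by plasmacytoid dendritic cells.

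The libraries held 14944622 to 19456838 reads assigned to genes, and values below are normalized read counts, in which 3 reads correspond to 2.59 to 3.36. The lowest value of any of the 9 genes rested on 553 reads, so counting error is small beside the spread between mice. The hemoglobin share of reads was 6.39%, 6.75% and 1.91% in D3TA libraries 1, 2 and 3, against 1.63%, 1.40% and 6.57% in WT libraries 1, 2 and 3. Ccnd3 itself was at 7842, 3509 and 2424 in the D3TA libraries, against 3086, 3064 and 2433 in the WT libraries, and since the edit alters a codon these counts do not check the labels. WT-2 listed 8449 genes at 0, where the others listed 3193 to 5170. Markers of B cells, T cells, red cells, macrophages and neutrophils were detected in every library, except Mmp8, which was at 0 in at least 1. These markers do not tell spleen apart from other tissues with the same cells, so they do not check the spleen label.

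The shared picture was that the receptor chains and most of their downstream partners had lower values in D3TA spleens, while values of the inhibitory receptors Cd22 and Cd72 overlapped between the groups. For Cd79a, Cd79b, Ms4a1, Btk, Blk and Bank1, each D3TA library lay below each WT library. Such separation was seen for 6.84% of the 15564 tested genes in this direction. For Cd22, Cd72 and Blnk the groups overlapped. All 9 differences between group means of log2 values were below 0, with a median of -1.18, where the median of all tested genes was 0.06. The 9 genes together summed to 25389 ± 11839 normalized counts in D3TA spleens, against 60587 ± 3142 in WT spleens (SD, n = 3 each). The ratio of these arithmetic means, WT over D3TA, was 2.39. Cd79a and Cd79b, with WT means of 19901 and 16265, made up most of the WT sum. No gene passed the threshold over all tested genes: in limma 0 of 9 had a Benjamini-Hochberg adjusted p under 0.05, beside 0% of all tested genes. With unadjusted p values, 5 of the 9 (Cd79a, Cd79b, Ms4a1, Blk and Bank1) were under 0.05, beside 3.83% of all tested genes in the same direction. Lower values were not particular to these genes. Of 14 other B lineage genes, described below, 12 were under 0.05 in this direction and 10 were apart below WT, with a median of -1.32. RNA of a whole spleen does not tell fewer B cells apart from less RNA per B cell.

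**Figure D1:**
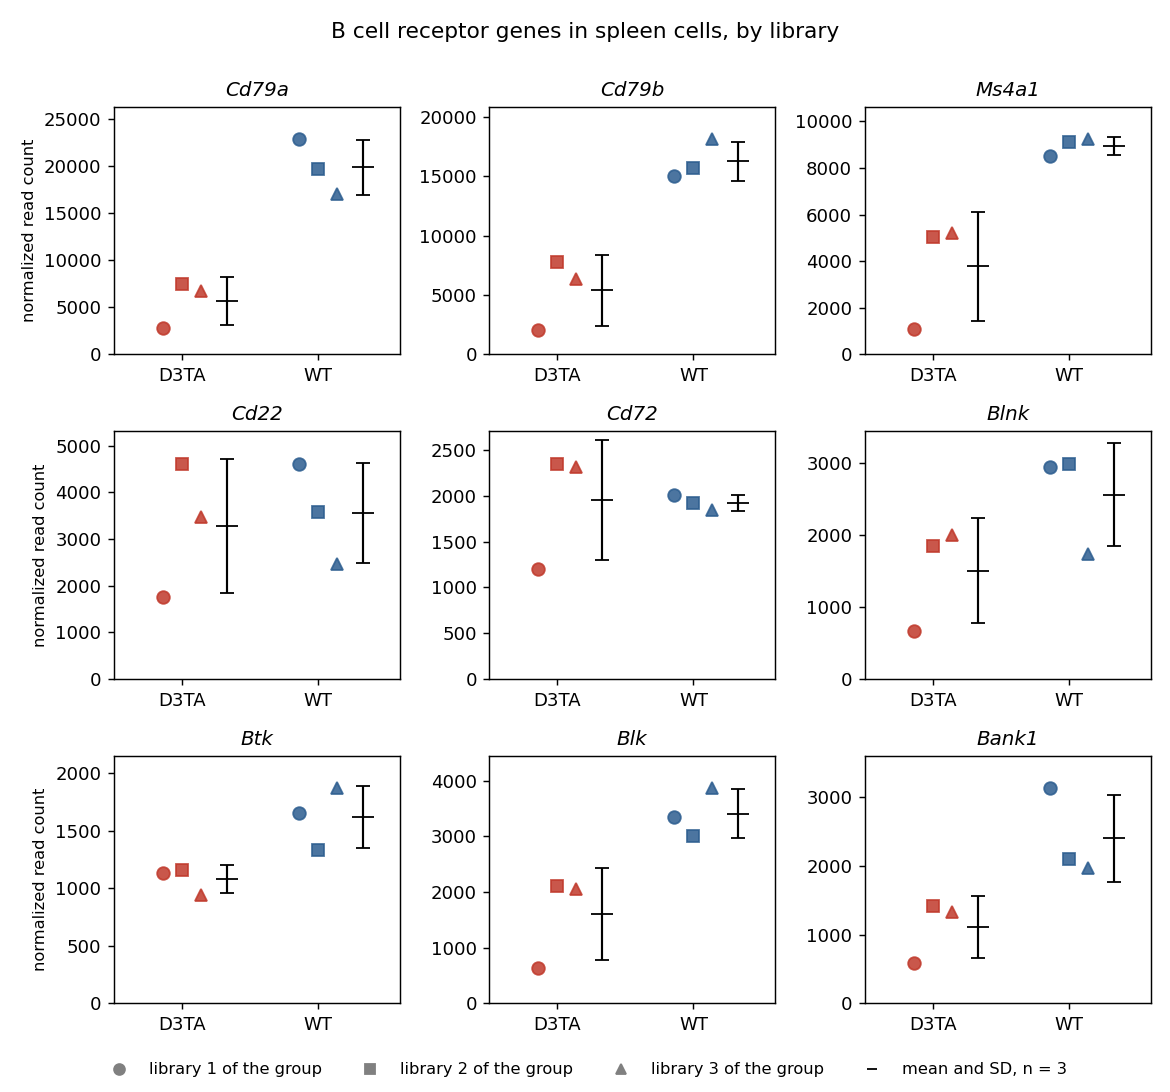
Normalized read counts (y axes, each from 0) of the 9 genes in the 3 D3TA and 3 WT libraries; symbols are libraries, and the bar beside each group is its mean and SD. The groups are apart for 6 genes and overlap for Cd22, Cd72 and Blnk, and D3TA-1 is the lowest D3TA library for 8 of the 9.

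Sequence around the transcription start is available for 6 of the 9 genes in the RefSeq promoter table (GRCm38.p6), and not for Cd79b, Ms4a1 and Blk. The 5 windows below are shown because they include genes on both sides of the result: Cd79a and Bank1, which were separated between the groups, and Cd22, Cd72 and Blnk, which were not. Each runs 5′ to 3′ along the gene, with 250 bases before and 50 after the start. Capitals mark matches, on either strand, to 4 motifs known from B cell promoters: the octamer ATTTGCAT, an ETS site AGGAAGT, an EBF site CCCNNGGG and the E-box CAGGTG.
Cd79a, chr7:24897247-24897546, plus strand: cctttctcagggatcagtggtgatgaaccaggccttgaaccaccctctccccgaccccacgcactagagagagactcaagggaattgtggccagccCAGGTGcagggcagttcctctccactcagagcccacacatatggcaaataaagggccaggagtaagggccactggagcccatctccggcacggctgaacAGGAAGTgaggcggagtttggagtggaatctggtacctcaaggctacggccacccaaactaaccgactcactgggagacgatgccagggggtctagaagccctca
Bank1, chr3:136326017-136326316, minus strand: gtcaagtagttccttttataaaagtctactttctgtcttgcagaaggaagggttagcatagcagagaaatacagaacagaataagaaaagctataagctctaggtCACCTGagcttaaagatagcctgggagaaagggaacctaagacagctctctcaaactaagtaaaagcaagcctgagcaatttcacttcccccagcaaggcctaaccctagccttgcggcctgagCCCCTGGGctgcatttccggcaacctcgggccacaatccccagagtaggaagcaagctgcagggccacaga
Blnk, chr19:40994172-40994471, minus strand: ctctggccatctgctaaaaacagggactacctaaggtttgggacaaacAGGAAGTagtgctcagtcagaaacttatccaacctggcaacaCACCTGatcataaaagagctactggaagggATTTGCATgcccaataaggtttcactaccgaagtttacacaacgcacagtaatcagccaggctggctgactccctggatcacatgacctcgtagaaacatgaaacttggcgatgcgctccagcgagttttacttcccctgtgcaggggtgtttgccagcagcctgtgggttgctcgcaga
Cd22, chr7:30878979-30879278, minus strand: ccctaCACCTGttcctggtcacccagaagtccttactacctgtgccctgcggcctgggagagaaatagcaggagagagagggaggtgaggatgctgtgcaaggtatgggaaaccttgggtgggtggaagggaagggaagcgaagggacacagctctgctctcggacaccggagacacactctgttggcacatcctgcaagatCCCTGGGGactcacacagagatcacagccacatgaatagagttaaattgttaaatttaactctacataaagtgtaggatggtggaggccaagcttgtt
Cd72, chr4:43454577-43454876, minus strand: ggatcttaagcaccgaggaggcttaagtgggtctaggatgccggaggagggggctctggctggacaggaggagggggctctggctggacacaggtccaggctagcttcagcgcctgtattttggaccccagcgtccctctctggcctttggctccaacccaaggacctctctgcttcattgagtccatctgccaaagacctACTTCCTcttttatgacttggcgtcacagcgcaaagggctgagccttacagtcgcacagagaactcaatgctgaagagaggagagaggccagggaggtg

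The windows differ in which exact motif letters they hold. The octamer was found in 1 of the 6 windows, that of Blnk, 130 bases before the start, and in 1.74% of all 32851 windows of the table. The ETS letters were in 3 of 6 (Cd79a, Cd72 and Blnk), at 55, 49 and 202 bases before the start in that order, against 9.35% of all windows. The E-box was in 4 of 6 (Cd79a, Cd22, Blnk and Bank1), against 20.2% of all windows. The EBF letters were in 2 of 6 (Cd22 and Bank1), against 13.7% of all windows. The Btk window held none of the 4. Of the separated genes, Cd79b, Ms4a1 and Blk have no window and Btk has no match. The windows therefore cannot show whether a motif goes with separation, and a match is only a match of letters. Nor does a lack of match show that a site is absent, since only exact letters were counted. The Cd79a window, for instance, holds ctcaaggg, a near match to the EBF letters that was not counted.

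The signalling chains of the receptor showed the widest gap of the 9 genes. Cd79a (ENSMUSG00000003379, chromosome 7, 24897381 to 24902197, GRCm38) encodes Ig-alpha. Its normalized counts in D3TA mice 1, 2 and 3 were 2766, 7523 and 6767, against 22915, 19746 and 17043 in WT mice 1, 2 and 3, the order used for all genes here. Even the highest D3TA mouse was far under the lowest WT mouse. The log2 difference was -1.92 ± 0.40 (SE), or 3.80-fold lower in D3TA (limma adjusted p = 0.163). Cd79b (ENSMUSG00000040592, chromosome 11, 106311341 to 106314762) encodes Ig-beta, the partner chain. Its counts were 2037, 7809.6 and 6328 in the D3TA libraries, against 15003, 15660.2 and 18132 in the WT libraries, again without overlap. The log2 difference was -1.80 ± 0.46 (SE), 3.48-fold lower, with an adjusted p of 0.246 in limma.

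DESeq2 on recovered reads is the only one of the count-based tests run that called these chains. It gave adjusted p values of 0.00185 for Cd79a and 0.0253 for Cd79b and called 2 of the 9 genes lower, beside 0.705% of the 18588 genes it tested. edgeR's quasi-likelihood test gave 0.195 and 0.276, and limma-voom gave 0.260 and 0.370. Leaving out D3TA-3 brought Cd79a to an adjusted p of 0.0325 in limma, as 1 of the 9, beside 0.373% of genes called lower in that fit. Without D3TA-1 the log2 differences were -1.47 for Cd79a and -1.21 for Cd79b. The calls of the 2 chains therefore depended on the test and on the libraries.

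The proportion of the chains to each other overlapped between the groups. The ratio of Cd79b to Cd79a counts was 0.737, 1.04 and 0.935 in the D3TA libraries and 0.655, 0.793 and 1.06 in the WT libraries. The exact test did not separate them (exact 2-sided permutation p = 0.8, where 3 against 3 libraries cannot go below 0.1). The ratio was computed after the values were seen.

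Ms4a1 (ENSMUSG00000024673, chromosome 19, 11249675 to 11266241) encodes CD20, a membrane protein of B cells that supports calcium entry. It was at 1073, 5039 and 5220 in the D3TA libraries, against 8505, 9107 and 9237 in the WT libraries. The WT libraries were close together, with a coefficient of variation of 4.36%, whereas D3TA spread 4.86-fold from lowest to highest, at 62.0%. The log2 difference was -1.55 ± 0.53 (SE), 2.94-fold lower (limma adjusted p = 0.391), and it was -0.80 when D3TA-1 was left out.

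The kinases behaved unequally. Blk (ENSMUSG00000014453, chromosome 14, 63372836 to 63417037), a Src family kinase found mostly in B cells, was at 643, 2109 and 2053 in D3TA, against 3349.9, 2998 and 3865 in WT. The groups were apart, with a log2 difference of -1.27 ± 0.44 (SE), 2.41-fold lower, and an adjusted p of 0.391 in limma. Btk (ENSMUSG00000031264, chromosome X, 134542336 to 134583570), the Tec family kinase that activates phospholipase C gamma, was at 1139, 1161 and 945 in D3TA, against 1658, 1335 and 1873 in WT. These groups did not overlap either, but the gap was smaller, at -0.58 ± 0.27 (SE), 1.49-fold lower, with an adjusted p of 0.532. Btk is the member whose D3TA libraries were most alike, within 1.23-fold, and the one whose lowest value was not in D3TA-1. It is also the member with the best known use outside B cells, in myeloid and mast cells. Neutrophil markers summed to 83592 to 464849 normalized counts in D3TA and 12826 to 29212 in WT, with 12 of 12 above 0 in log2 difference. Mast cell and basophil markers summed to 803 to 1072 in D3TA and 344 to 373 in WT, with 6 of 6 above 0, and Fcer1a and Ms4a2 at 0 in at least 1 library. Monocyte and macrophage markers, also myeloid, went the other way more often, with 7 of 10 below 0 and 3 above, and a median of -0.15. The part of these cells in the Btk values was not tested.

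The adaptors lay between the chains and the inhibitory receptors. Bank1 (ENSMUSG00000037922, chromosome 3, 136053363 to 136326066), a scaffold with ankyrin repeats that binds Lyn, was at 592, 1419 and 1334 in D3TA, against 3134, 2099.5 and 1972 in WT. The groups were apart, with a log2 difference of -1.18 ± 0.38 (SE), 2.26-fold lower, and an adjusted p of 0.361 in limma. Blnk (ENSMUSG00000061132, chromosome 19, 40928927 to 40994535), the scaffold that links Syk to Btk, was at 664, 1848 and 1995 in D3TA, against 2953, 2995 and 1742 in WT. WT-3 lay below both D3TA-2 and D3TA-3, so the groups overlapped, with a log2 difference of -0.88 ± 0.44 (SE; limma adjusted p = 0.546). Without D3TA-1 the Blnk difference was -0.37.

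The inhibitory receptors had the smallest differences of the 9. Cd22 (ENSMUSG00000030577, chromosome 7, 30865402 to 30880342), a lectin that binds sialic acid, was at 1753, 4619.9 and 3465 in D3TA, against 4608, 3591 and 2465 in WT. D3TA-2 was the highest of the 6 libraries and D3TA-1 the lowest. It differed by -0.18 ± 0.40 on the log2 scale (SE; limma adjusted p = 0.910). Cd72 (ENSMUSG00000028459, chromosome 4, 43446462 to 43454628), a C-type lectin-like receptor, was at 1199, 2353 and 2312 in D3TA, against 2014, 1922 and 1841 in WT. Its WT libraries lay between the lowest and the other D3TA libraries. It differed by -0.04 ± 0.32 on the log2 scale (SE; limma adjusted p = 0.973). Without D3TA-1 the signs turned, to 0.22 for Cd22 and 0.28 for Cd72, and scaling by library size alone put Cd72 at 0.04. Exons of Cd72 share 1423 bases with Tesk1 on the other strand, and exons of Cd22 share 479 bases with Gm29439. No strand-marking step is described, so reads from these stretches cannot be assigned to either gene with certainty. Tesk1 itself was at 42.8 to 179.8 in D3TA and 123.7 to 299.9 in WT, far below Cd72. The Tesk1 count does not limit the effect on Cd72, which has 3422 merged exon bases, since the counting program is not given.

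**Figure D2:**
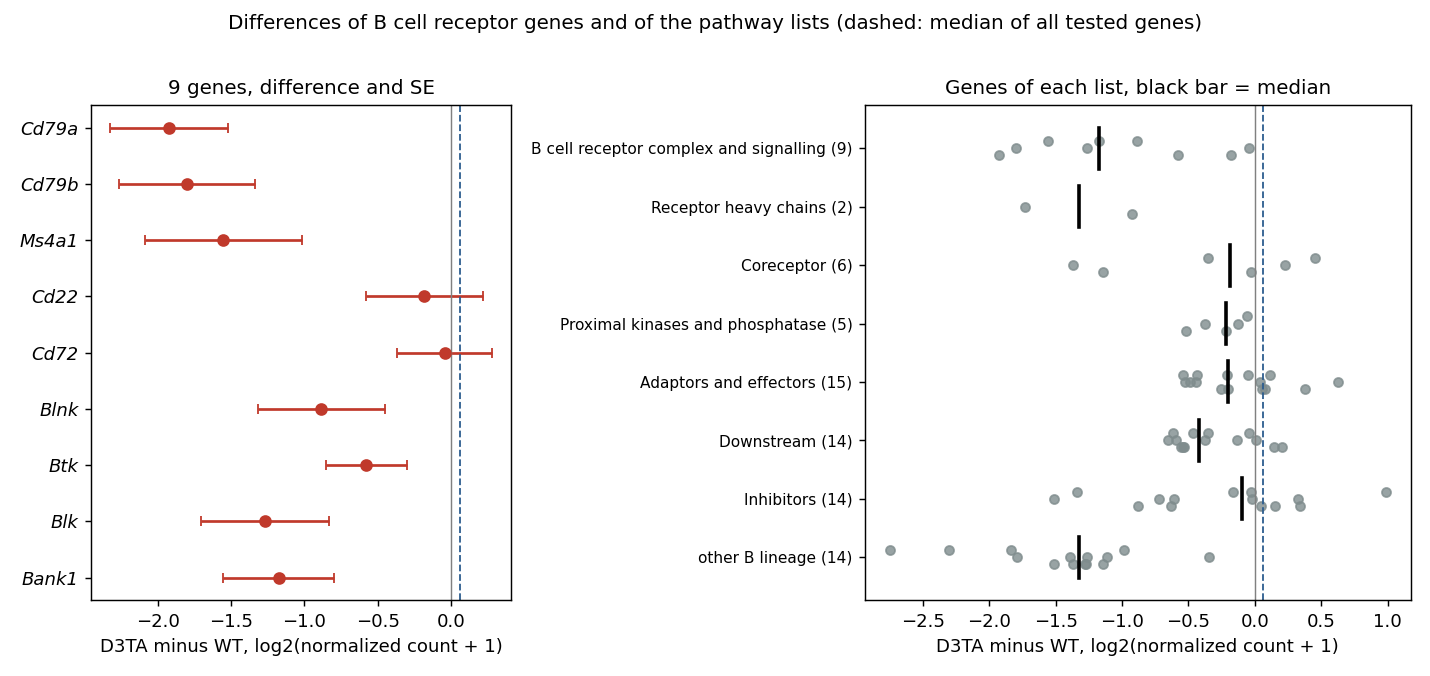
Left, the log2 difference (D3TA minus WT) and limma SE of the 9 genes; right, the differences of the genes of each list, with the number tested in brackets and the list's median as a black bar. Grey lines mark 0 and dashed lines the median of all tested genes, 0.06. Cd22 and Cd72 lie near 0 and the 7 others below it, as do the heavy chains and the other B lineage genes.

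Set against other B lineage transcripts, Cd79a was lower in each D3TA library than in any WT library, and Cd22, Cd72 and Blnk were higher. Because the B lineage genes themselves had lower values in D3TA, 59.8% of all tested genes were higher in this sense, so the position of the 3 is shared with most genes. Lower in this sense were 0.18% of all tested genes. The yardstick was the mean log2 value of 14 B lineage genes that are not among the 9, such as Pax5 and Ebf1. This mean was 9.16, 10.71 and 10.48 in the D3TA libraries and 11.84, 11.70 and 11.18 in the WT libraries, a difference of -1.45. Relative to it, Cd79a was at 2.27, 2.16 and 2.24 in D3TA, against 2.65, 2.57 and 2.88 in WT. The groups did not overlap, and the relative difference was -0.47 ± 0.10 (SE). Cd22 was at 1.61, 1.46 and 1.28 in D3TA, against 0.33, 0.11 and 0.09 in WT, a relative difference of 1.27 ± 0.12 (SE). Cd72 was at 1.07, 0.49 and 0.69 in D3TA, against -0.86, -0.79 and -0.33 in WT, a relative difference of 1.41 ± 0.24 (SE). Blnk also lay higher in each D3TA library on this scale, by 0.57 ± 0.13 (SE). Each of these 4 genes had an exact 2-sided permutation p of 0.1, the smallest that 3 against 3 libraries allow, so none could pass 0.05. The other 5 genes overlapped, with relative differences from -0.35 for Cd79b to 0.88 for Btk and exact permutation p values of 0.3 to 0.9.

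With each library left out in turn, the relative difference was 1.19 to 1.36 for Cd22 and 1.25 to 1.57 for Cd72. With Pax5 alone the values were 0.93 for Cd22 and 1.07 for Cd72. On the plain log2 scale both lay above the highest of the 14 B lineage genes, Pou2af1, which differed by -0.34. The lowest of the 14 was Vpreb3, at -2.75. The same subtraction puts the median of all tested genes at 1.51, so Cd22 and Cd72, at 1.27 and 1.41, lay slightly under the midpoint of all tested genes on this scale. Monocyte and macrophage markers, one possible other source of Cd72, had 3 of 10 genes above 0, and summed to 22449 to 44161 in D3TA and 28558 to 48651 in WT. Plasmacytoid dendritic cell markers, a possible other source of Cd22, had 0 of 7 above 0, and summed to 3683 to 10401 in D3TA and 7924 to 10340 in WT. None of these 17 markers was at 0 in any library, and their part in the Cd22 and Cd72 values was not tested.

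**Figure D3:**
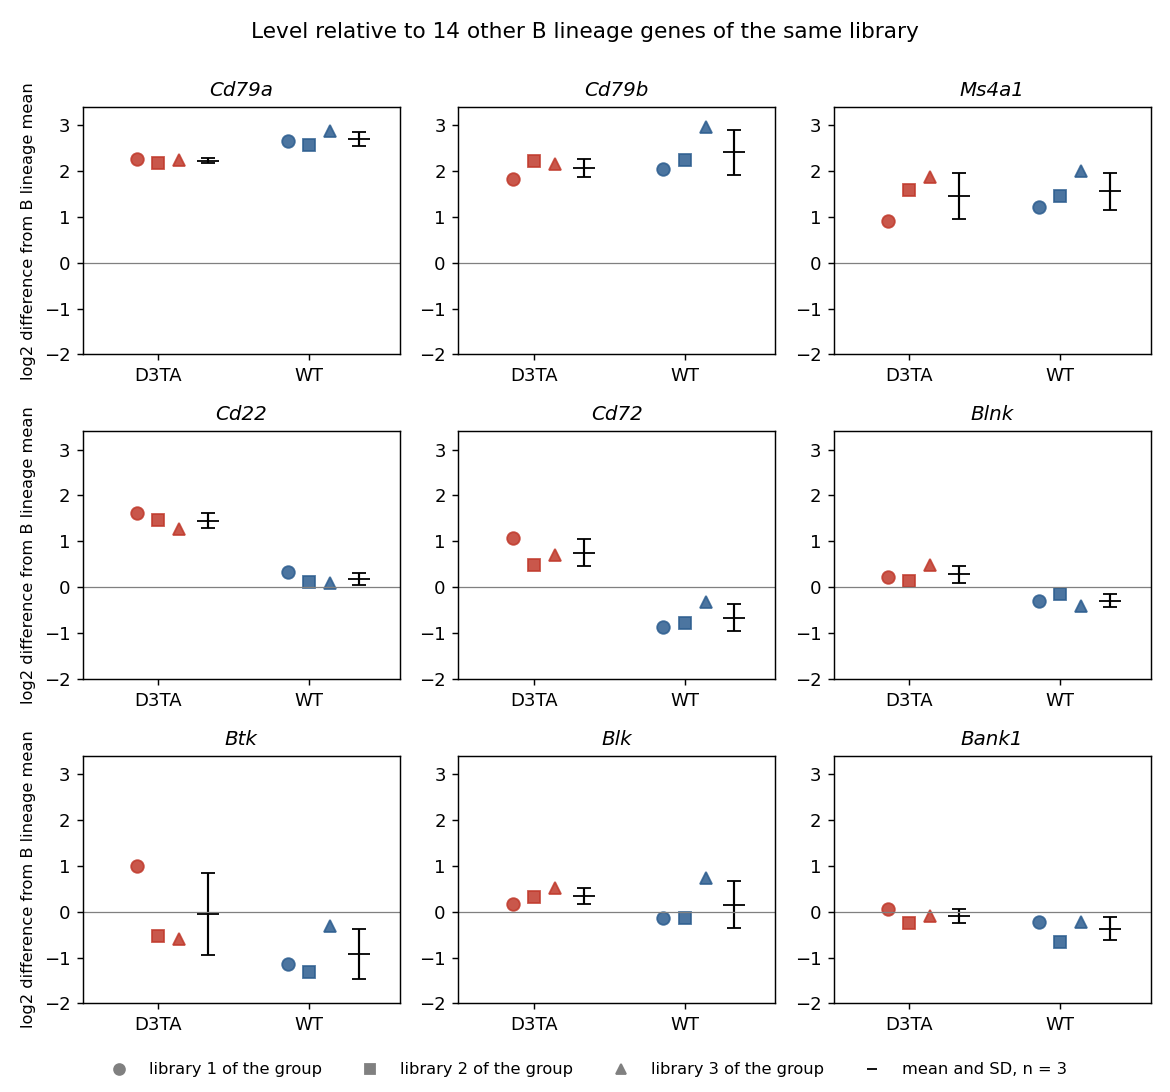
Log2 level of each gene minus the mean log2 level of 14 other B lineage genes in the same library (y axes), with D3TA left and WT right; bars are mean and SD. Cd22, Cd72 and Blnk are higher in all 3 D3TA libraries than in any WT library, as are 59.8% of all tested genes, Cd79a is lower, and the other 5 genes overlap.

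Ratios to Cd79a largely restate how low Cd79a itself was: 83.1% of all other tested genes had a higher ratio to it in every D3TA library than in any WT library, with a median 3.96-fold higher. The inhibitory receptors were close to that median. The ratio of Cd22 to Cd79a counts was 0.634, 0.614 and 0.512 in the D3TA libraries, against 0.201, 0.182 and 0.145 in the WT libraries, a 3.35-fold higher ratio. The ratio of Cd72 to Cd79a was 0.433, 0.313 and 0.342 in D3TA, against 0.0879, 0.0973 and 0.108 in WT, 3.69-fold higher. D3TA-1, the library with the fewest B cell transcripts, was near D3TA-2 in the Cd22 ratio, although its counts of both genes were far lower. The Blnk ratio was also near, but not every ratio was. In D3TA-1 the ratio was higher than in D3TA-2 for Cd72 and for Btk (0.412 against 0.154). It was lower for Ms4a1 (0.388 against 0.670). The ratios of Blnk, Btk, Blk and Bank1 to Cd79a also did not overlap and were 2.06, 2.55, 1.58 and 1.68-fold higher in D3TA, less than for the median gene, whereas that of Ms4a1 overlapped. All of these share Cd79a as denominator and were computed after the values were seen, and each separated ratio has an exact permutation p of 0.1.

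Levels of different genes were compared per kilobase of merged exons. In D3TA the order was Cd79a at 3902 ± 1755, Cd79b at 3768 ± 2095, Cd22 at 650.4 ± 286, Ms4a1 at 611 ± 379, Blk at 594 ± 308 and Cd72 at 571 ± 191 (SD, n = 3 each). Btk followed at 343 ± 37.7, Blnk at 251 ± 122 and Bank1 at 149 ± 60.7. In WT it was Cd79a at 13659 ± 2017, Cd79b at 11366 ± 1153, Ms4a1 at 1446 ± 63.1, Blk at 1262 ± 162, Cd22 at 705 ± 213 and Cd72 at 563 ± 25.2 (SD, n = 3 each). Btk followed at 515 ± 86.0, Blnk at 428 ± 119 and Bank1 at 321 ± 85.1. The order of these means was not that of each library, and the place of Cd22 varied within both groups. In both groups the 2 chains stood far above the rest and were not separated from each other, with Cd79b above Cd79a in D3TA-2 and in WT-3. In D3TA the levels of Cd22, Ms4a1, Blk and Cd72 overlapped, whereas in WT each Blk library lay above each Cd22 library. Between neighbours in the WT order, Ms4a1 and Blk, Cd22 and Cd72, Cd72 and Btk, Btk and Blnk, and Blnk and Bank1 also overlapped. Merged exons can be longer than the transcripts in use, so the order holds only on this scale.

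The partner genes around these 9 lay more often below than above WT, but without passing the adjusted threshold. The 6 lists held 56 genes, all tested, of which 0 passed in limma over all tested genes in either direction. At an unadjusted p under 0.05, 6 were lower and 1 was higher in D3TA, beside 3.83% and 6.08% of all tested genes. Groups were apart for 9 genes below and 1 above WT, beside 6.84% and 8.18% of all tested genes. The median difference of the 56 was -0.23. Some genes of these lists, among them Cr2 and Fcrla, also belong to the 14 B lineage genes used above.

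Both heavy chain genes had differences below 0. Ighd, the constant region of IgD, had a mean of 2683 ± 688 in D3TA spleens, against 8937 ± 2348 in WT spleens (SD, n = 3 each). Its log2 difference was -1.73 with an adjusted p of 0.112 in limma and 0.00059 in DESeq2. Ighm, the constant region of IgM that plasma cells also make, had a mean of 117129 ± 28937 in D3TA spleens, against 238261 ± 121105 in WT spleens, with overlapping groups and a log2 difference of -0.92. Immunoglobulin constant genes can share reads, so both values are uncertain. The coreceptor list had 4 of 6 genes below 0 and a median of -0.19. Cr2, the complement receptor CD21, differed by -1.37 with overlapping groups. Ifitm3, a membrane protein that is also induced by interferon, was the highest of the list at 0.46.

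The lists of proximal kinases, adaptors and downstream genes had smaller median differences than the 9 genes. All 5 genes of the proximal kinase and phosphatase list (Syk, Lyn, Fyn, Csk and Ptprc) overlapped between groups, with a median of -0.22. Csk, which restrains Src family kinases, differed by -0.52, Lyn by -0.37 and Fyn by -0.06, the last of which turned above 0 in 8 of the alternatives. Of 15 adaptors and effectors 9 lay below 0, with a median of -0.20. Nck1, an adaptor that links receptors to actin, was apart at -0.53. Vav2, a guanine nucleotide exchange factor, differed by -0.54, and Gab1, a docking protein, by 0.63, both with overlapping groups. Of 14 downstream genes 11 lay below 0, with a median of -0.42. Malt1, a paracaspase that links the receptor to NF-kappa-B, was apart at -0.56. The inositol trisphosphate receptors Itpr3 and Itpr1 differed by -0.62 and 0.20, both with overlapping groups.

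The inhibitor list was mixed. Of 14 genes 9 lay below 0 and 5 above, with a median of -0.10. Sh3bp5, an inhibitor of Btk, had a mean of 1009 ± 29.3 in D3TA spleens, against 1917 ± 542 in WT spleens (SD, n = 3 each). The groups were apart, at -0.88 in log2 difference. Fcrla, a B cell protein related to Fc receptors, had a mean of 1631 ± 1033 in D3TA spleens, against 3732 ± 429 in WT, also apart, at -1.51, and at -0.75 without D3TA-1. Pirb, an inhibitory receptor carried by B cells and by myeloid cells, had a mean of 2105 ± 596 in D3TA spleens, against 1102 ± 505 in WT, at 0.99 with overlapping groups. Pirb belongs to a family of near copies, the Pira genes, so its reads can be shared. Neutrophil markers, given above, also had differences above 0, and the part of neutrophils in the Pirb values was not tested.

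D3TA-1 carried the lowest values of the D3TA group for 8 of the 9 genes. Without it, the median of the 9 differences was -0.70. With D3TA-1 and WT-2 both left out the median was -0.79, and 2 of the 9 (Cd79a and Cd79b) had an unadjusted p under 0.05 in limma, beside 1.7% of all tested genes lower in that fit. T cell markers were low in the same library, with sums of 4239, 11153 and 14732 in D3TA mice 1, 2 and 3 and of 11396 to 18281 in WT mice. Red cell markers were high in D3TA-1 and D3TA-2, at 1152388 and 1156877, and also in WT-3 at 1256093, against 244217 to 299831 in the other libraries. The part of these other cells in the 9 genes was not tested.

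**Figure D4:**
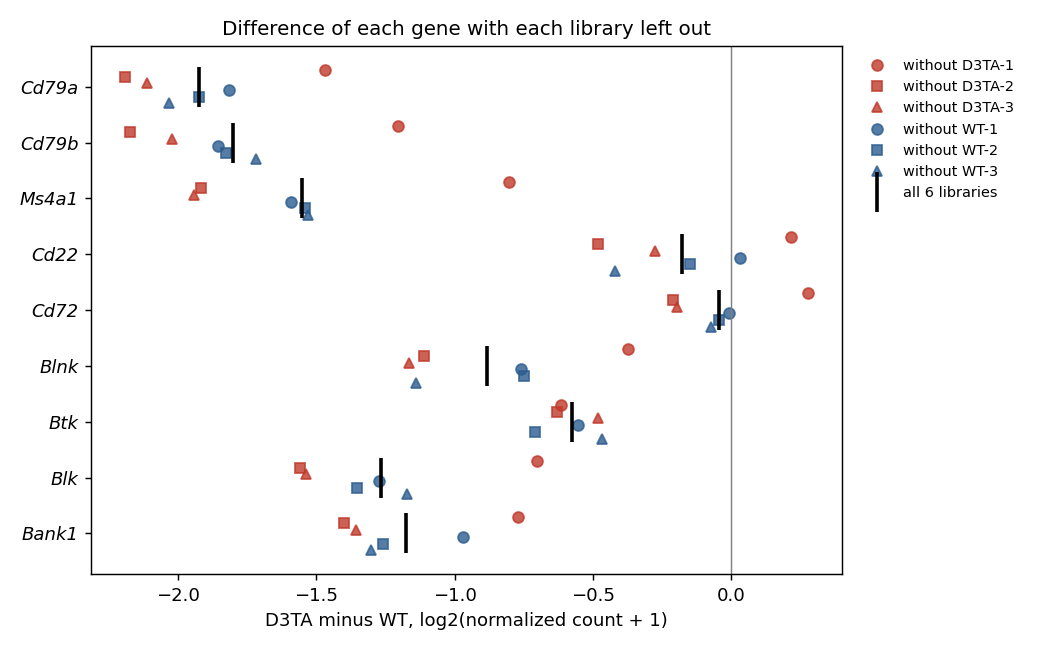
Log2 difference (x axis, D3TA minus WT) of each of the 9 genes with all 6 libraries (black bars) and with each library left out (red symbols for a D3TA library left out, blue for a WT library). Leaving out D3TA-1 moves 8 genes toward or past 0, and Btk hardly moves.

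The sizes of the differences were compared between libraries with a high and with a low hemoglobin share. For the 6 genes whose groups do not overlap, the sign within a class is fixed by that, so only the sizes are of use. In the high-share class, D3TA-1 and D3TA-2 against WT-3, the log2 differences were -1.90 for Cd79a, -2.18 for Cd79b, -1.99 for Ms4a1, -1.73 for Blk and -1.10 for Bank1. In the low-share class, D3TA-3 against WT-1 and WT-2, they were -1.65, -1.28, -0.75, -0.63 and -0.94 in the same order. Blnk gave -0.65 and -0.58, and Btk gave -0.70 and -0.65. Cd22 and Cd72 crossed 0, at 0.21 and -0.13 between the high-share libraries and at -0.23 and 0.23 between the low-share ones. Each of these values rests on 1 library on one side, and no test was run within the classes. D3TA-1, which is in the high-share class, was the lowest D3TA library for each of these genes except Btk. The classes therefore cannot tell the hemoglobin share apart from that library, and the part of either in the sizes was not tested. The libraries with a summed count of Y-linked genes above 1000 (D3TA-3 and WT-1) gave -1.76 for Cd79a, and the other 4 gave -2.01.

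The 5 tested genes whose profile over the 6 libraries was most like the mean standardized profile of the 9 were Trim34b, Il27ra, Fam169b, Fchsd2 and Gm11998. Their Pearson coefficients with that profile, over 6 libraries and as a description only, were 0.997, 0.992, 0.992, 0.992 and 0.991. Il27ra, the receptor chain for interleukin-27, was at 419.9, 697 and 689.8 in D3TA, against 969, 876 and 798 in WT. Fchsd2 was at 500.2, 1073 and 1007 in D3TA, against 1447, 1287 and 1128 in WT. Trim34b was near the floor, at 2.14, 12.1 and 8.64 in D3TA and 20.1, 17.9 and 16.4 in WT, so its closeness rests on few reads. Among the 9 themselves, which form the profile, the coefficient was lowest for Btk at 0.565, Cd72 at 0.727 and Cd22 at 0.746, and 0.942 to 0.981 for the other 6.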

How the data were processed

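RNA was measured in 6 spleen libraries, 1 per mouse. Per the submitters' processing notes, CASAVA, FastQC, Trim Galore, HISAT2 and DESeq2 were used with mm10; versions, roles, counting program and annotation are not given in the sources used here. The deposited values are a signal, not raw reads: each library's values are multiples of its own fixed step, as when the authors scale counts by size factors. All 149436 values (100%) were whole reads, to 0.001, once divided by that step. The 3-read floor reflects counting error alone, since the sources used here describe no molecular identifiers.

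Symbols, coordinates and exon lengths came from GENCODE M21 (GRCm38, also called mm10), which held 24860 of the 24906 identifiers. A gene entered the test with 3 or more libraries at 10 or above (15564 genes). limma 3.58.1, with trend and robust options, modelled log2 of the normalized count plus a pseudocount of 1 on genotype, 2-sided, adjusted by Benjamini-Hochberg at 0.05. Folds are 2 raised to the log2 difference, on this scale, which understates changes of low genes. edgeR 4.0.16, DESeq2 1.42.0 and limma-voom were run on recovered reads. The main test was also run on simulated counts with changes larger than any of the 9 genes showed. That run does not measure its power or error for these genes. Levels relative to B lineage genes were compared by exact permutation over libraries, unadjusted. Partner genes were named as the pair with the smallest p and the lowest and highest difference of each list; some genes this rule names, and 1 other yardstick, are not reported here. The 9 genes and all lists were chosen with earlier results of these data known. R 4.3.3 and Python 3.11.15 were used.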

Additional observations from a re-analysis of the deposited data

How the results depend on the processing

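The count of called genes, 0 in limma, was 44 without the filter on low values, 472 in DESeq2, 15 with a term for a Y-linked sum above 1000, 11 with a term for hemoglobin above 5% and 0 to 306 with single libraries left out (306 without D3TA-3). It was 0 under the other scalings, filters, pseudocounts, limma-voom and edgeR (1406 and 1611 genes at an unadjusted p under 0.05, 1542 in limma). The count of called members was 1 without the filter (Cd79a, adjusted p 0.0357), 2 in DESeq2 and 0 to 1 with single libraries left out. The adjusted p of Cd79a ranged from 0.00185 to 0.567 over 21 alternatives and that of Cd79b from 0.0253 to 0.791. The signs of Cd22 and Cd72 turned under some of the 21. Cd22 was 0.25 without both D3TA-1 and WT-2 and -0.48 to 0.22 with single libraries left out. Cd72 was 0.042 by library size, 0.012 in edgeR, 0.022 in DESeq2, 0.050 with hemoglobin as a term, 0.28 with D3TA-1 and WT-2 both left out and -0.21 to 0.28 with single libraries left out. Fyn was 0.028 by library size, 0.016 in edgeR, 0.024 in DESeq2, 0.25 with hemoglobin as a term, 0.45 with both left out and -0.42 to 0.32 with single libraries left out. Itpr1 was -0.078 to 0.42 with 1 library, or D3TA-1 and WT-2 together, left out. The median relative difference of the 9 genes was -0.067 with Pax5 as the yardstick, against 0.28; Blk then stood at -0.16 and Bank1 at -0.067. Ms4a1 relative to B lineage genes was -0.31 to 0.17 with single libraries left out, 0.12 without WT-3. The cause of these changes was not tested. With the replicate number as a replicate block, 0 genes and 0 members were called. Same-numbered libraries did not deviate together (correlations of deviations -0.057, -0.0046 and -0.13), so the numbers were not taken as pairs. With 3 mice a group, exact tests cannot go below 0.1.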
